A study of Homo sapiens with 12 samples.

Results

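The metallothionein genes, the metal-sensing transcription factor gene MTF1 and genes of zinc transport were followed across 4 groups of Ovcar8, an established cell line from a high-grade serous carcinoma of the ovary. The set held 10 of the 58735 genes in the count table, found by their symbols: MT2A, MT1E, MT1X, MT1M and MT1F, the metallothionein pseudogene MT1L, MTF1, the zinc exporter SLC30A1 and the zinc importers SLC39A10 and SLC39A14. They were chosen by earlier results of these libraries, the differences between each hairpin group and the CCNE1 group, so those differences are described here with no test. Tests are given for CCNE1 overexpression against control and between the hairpins. Both share libraries with the contrasts that chose the genes. The test between the hairpins is also the difference of those contrasts, so it is not independent of the choice. All 10 genes were among the 15378 that passed the filter on low counts. With the control and CCNE1 libraries alone 9 would have passed, and MT1M entered through the hairpin groups, where its counts were high.

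RNA was measured in 12 libraries, 3 in each group. Control cells were set beside cells overexpressing CCNE1, the gene of cyclin E1. The remaining groups carried the CCNE1 overexpression together with either of 2 hairpins against TMLHE, the gene of the first enzyme of carnitine synthesis, and are called shTMLHE 1 and shTMLHE 2 here. Cells of all 4 groups had received lentivirus and puromycin at 3 ug/ml, and were grown in RPMI-1640 medium with 5% FBS. No CCNE1 group with a hairpin against another sequence is among the samples analysed here, so the loss of TMLHE and the presence of a hairpin cannot be told apart. The labels do not say that the 3 libraries of a group came from separate cultures, so the p-values reflect how much these libraries varied, and that variation may be technical.

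Metallothioneins are small, cysteine-rich proteins that bind zinc and copper in the cytosol and the nucleus. When free zinc rises, the zinc finger protein MTF1 binds metal response elements in the promoters of metallothionein genes and of SLC30A1, and their transcription goes up. Most transporters of the SLC30 family move zinc out of the cytosol, across the plasma membrane or into organelles. Those of the SLC39 family move it into the cytosol.

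Promoter windows from RefSeq on GRCh38.p14 run from 250 bases before to 50 bases after a transcription start. A gene without a match in the set of windows used here may still have a window in RefSeq. Windows in that set were matched to 5 of the 10 genes, MT2A, MT1X, MTF1, SLC30A1 and SLC39A10. They are shown for the most abundant metallothionein, for MT1X and SLC30A1, whose levels differed most between groups among the genes with a window, and for MT1H, a metallothionein with 0 counts in all 12 libraries. Capitals mark the core of the metal response element, TGCACNC or TGCGCNC, on either strand; no marked cores overlap in these 4 windows. The MT2A window is chr16:56608334-56608633 on the plus strand, around a start 385 bases downstream of the 5′ end of the counted gene. The MT1X window is chr16:56682220-56682519 on the plus strand, around a start 46 bases downstream of that end. The SLC30A1 window is chr1:211579112-211579411 on the minus strand, around a start 419 bases upstream of that end, and the MT1H window is chr16:56669564-56669863 on the plus strand.
MT2A: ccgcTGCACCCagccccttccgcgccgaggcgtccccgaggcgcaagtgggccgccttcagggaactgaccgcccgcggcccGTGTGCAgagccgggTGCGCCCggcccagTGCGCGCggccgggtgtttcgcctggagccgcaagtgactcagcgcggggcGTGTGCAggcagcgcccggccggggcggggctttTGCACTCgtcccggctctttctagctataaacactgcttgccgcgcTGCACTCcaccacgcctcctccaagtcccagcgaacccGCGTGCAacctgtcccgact
MT1X: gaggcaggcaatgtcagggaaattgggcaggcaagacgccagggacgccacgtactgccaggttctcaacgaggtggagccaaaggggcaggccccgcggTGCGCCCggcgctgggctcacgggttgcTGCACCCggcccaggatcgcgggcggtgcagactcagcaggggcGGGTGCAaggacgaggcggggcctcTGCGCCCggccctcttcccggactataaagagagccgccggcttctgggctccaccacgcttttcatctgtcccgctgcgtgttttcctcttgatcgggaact
SLC30A1: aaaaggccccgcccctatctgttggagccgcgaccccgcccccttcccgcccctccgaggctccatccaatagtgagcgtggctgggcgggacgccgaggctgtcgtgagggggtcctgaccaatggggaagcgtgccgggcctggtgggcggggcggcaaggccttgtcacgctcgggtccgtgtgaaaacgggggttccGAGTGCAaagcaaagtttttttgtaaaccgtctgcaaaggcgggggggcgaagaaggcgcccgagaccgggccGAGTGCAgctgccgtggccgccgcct
MT1H: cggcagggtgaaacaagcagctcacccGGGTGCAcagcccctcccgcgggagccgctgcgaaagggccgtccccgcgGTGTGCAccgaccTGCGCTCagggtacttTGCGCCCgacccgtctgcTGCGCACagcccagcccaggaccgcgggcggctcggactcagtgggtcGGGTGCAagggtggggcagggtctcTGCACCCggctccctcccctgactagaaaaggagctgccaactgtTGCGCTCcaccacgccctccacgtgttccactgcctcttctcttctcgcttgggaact

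The MT2A window held 8 cores, and so did that of MT1H, whose gene had no counts. The MT1X window held 4 cores and the SLC30A1 window 2. No core was in the MTF1 window at chr1:37859543-37859842 on the minus strand. One of the 2 SLC39A10 windows held 1 core and the other 0. Of all 35116 promoter windows of this length, 29.6% held at least 1 core, 8.6% at least 2, 0.601% at least 4 and 0.0199% at least 8. A core is a match of letters only, and binding was not measured.

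Library totals ran from 14054101 to 21457503 counts. The labels were checked on the altered genes. CCNE1 went from 33.1 ± 1.28 CPM (counts scaled to a library of 1e6 by TMM; mean ± SD, n = 3) in control to 1001 ± 34 with CCNE1, 1269 ± 49.0 with shTMLHE 1 and 847 ± 21.2 with shTMLHE 2. TMLHE had 16.5 ± 1.62, 15.7 ± 2.69, 0.956 ± 0.286 and 0.482 ± 0.241 CPM in the same order. Of 9 serous carcinoma markers, PAX8, EPCAM, KRT7, KRT8 and KRT18 passed the filter, EPCAM at group means of only 2.51 to 3.27 CPM. WT1 and SOX17 did not pass, with group means of at most 0.340 and 0.106 CPM. MECOM and MUC16 were at 0 in all libraries and SOX17 in control. Leukocyte markers summed to between 0.801 and 2.72 CPM and endothelial markers to between 0.911 and 3.86. Among the 5 fibroblast markers only COL1A1 was abundant, at a mean of 879 CPM in control, 605 with CCNE1, 1551 with shTMLHE 1 and 1229 with shTMLHE 2, while DCN was at 0 in all libraries and LUM, PDGFRA and FAP reached at most 0.828 CPM. Scaling by total counts alone would move the median of all tested genes from 0.03 to 0.43 (log2) for shTMLHE 1 minus CCNE1 and from 0.03 to 0.56 for shTMLHE 2 minus CCNE1, and the share of called genes that were higher from 50% to 75.9% and from 50.4 to 70.7%. For shTMLHE 1 minus shTMLHE 2 it would move that share from 51.9 to 42.3% and the median from -0.01 to -0.15.

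Metallothionein RNA was lowest in control, somewhat higher with CCNE1 and highest in the hairpin groups. Summed over all 21 metallothionein genes and pseudogenes in the table, it was 296 to 313 CPM in control, 428 to 453 with CCNE1, 1721 to 1817 with shTMLHE 1 and 940 to 1029 with shTMLHE 2. Ranges of the 4 groups did not overlap. As a share of all counts the sum was 0.0254 to 0.0269% in control, 0.0363 to 0.0384% with CCNE1, 0.192 to 0.201% with shTMLHE 1 and 0.115 to 0.126% with shTMLHE 2. Refitted as 1 feature, it rose with CCNE1 by 0.54 ± 0.04 (log2, SE; edgeR adjusted p = 1.22e-15) and was higher with shTMLHE 1 than with shTMLHE 2 by 0.83 ± 0.03 (edgeR adjusted p = 7.61e-23). Against CCNE1 it was higher by 2.00 ± 0.04 with shTMLHE 1 and by 1.16 ± 0.03 with shTMLHE 2. In bulk RNA, more cells with a transcript and more of it per cell cannot be told apart.

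**Figure D1:**
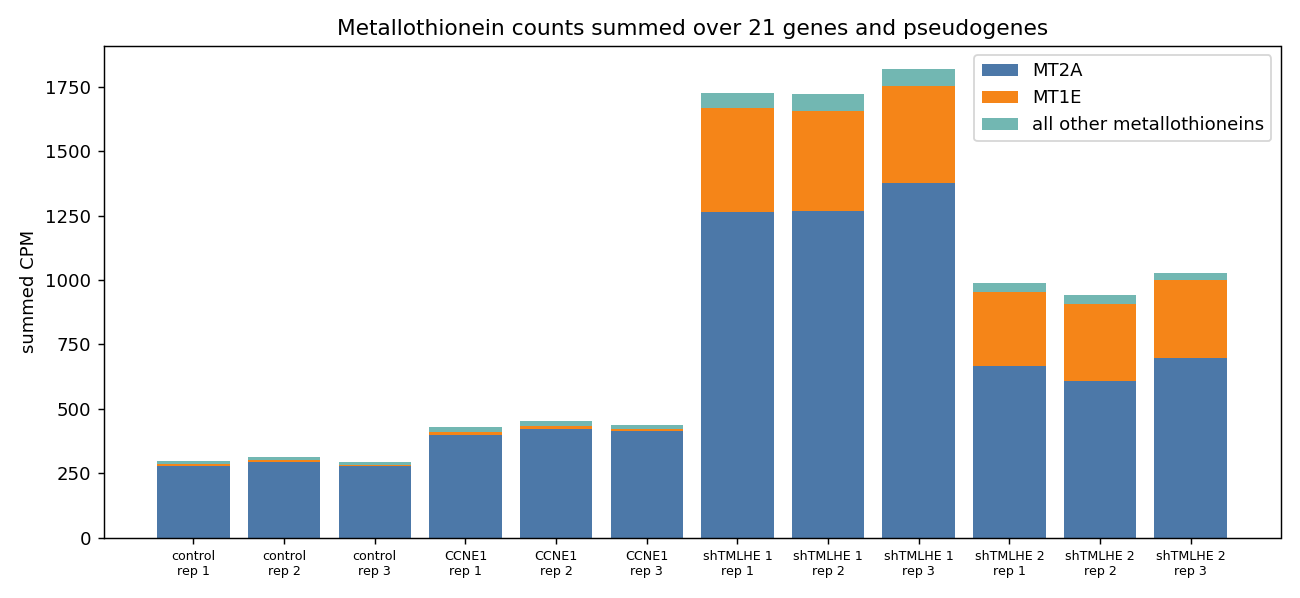
Stacked bars give the summed CPM of 21 metallothionein genes and pseudogenes in each of the 12 libraries, split into MT2A, MT1E and all others. The sum lies between 296 and 453 CPM in control and CCNE1 libraries and between 940 and 1817 CPM in hairpin libraries, where MT1E makes up a visible block.

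The make-up of the sum differed too. MT2A supplied 93.4 to 94.6% of metallothionein counts in control and 92.9 to 94.7% with CCNE1, against 73.2 to 75.8% with shTMLHE 1 and 64.6 to 67.6% with shTMLHE 2. MT1E supplied 1.57 to 2.49% in control, 1.68 to 2.58% with CCNE1, 20.8 to 23.4% with shTMLHE 1 and 29.2 to 32.1% with shTMLHE 2. Thus the hairpin group with the larger sum had the smaller share from MT1E.

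With CCNE1 overexpression 6 of the 10 genes rose, none fell and 4 missed the threshold (edgeR adjusted p under 0.05), where 44.2% of all tested genes passed, 25.1% higher and 19.1% lower. The median log2 difference of the 10 was 0.55, against 0.05 over all tested genes. Those that rose were MT2A, MT1E, MT1F, MT1L, MTF1 and SLC39A10. Against CCNE1, shTMLHE 1 gave 7 higher and 2 lower, where 60.7% of tested genes passed, 30.4% higher and 30.3% lower, and shTMLHE 2 gave 8 higher and 2 lower, where 73.0% passed, 36.8% higher and 36.2% lower. Both of these counts follow from how the genes were chosen and nothing is read from them. Between the hairpins 6 of the 10 genes were higher with shTMLHE 1 and 3 lower, where 60.3% of tested genes passed, 31.3% higher and 29.0% lower. The 6 were the metallothioneins and MT1L, and the 3 were the transporters SLC30A1, SLC39A10 and SLC39A14. Among the 6, MT1M had passed the filter through the hairpin groups. Once corrected for GC and length MT1E (adjusted p = 0.0527), MT1M (0.253) and SLC30A1 (0.0722) missed the threshold between the hairpins.

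**Figure D2:**
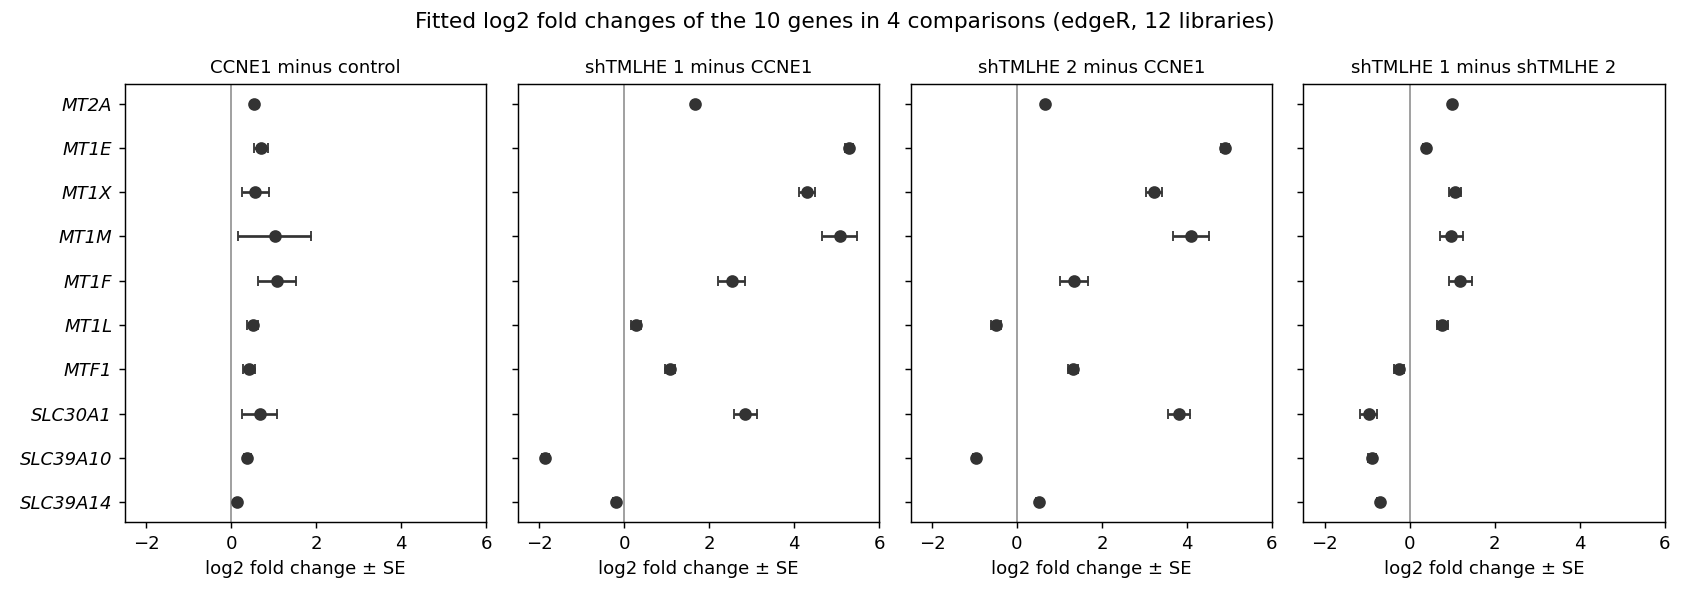
Points give the fitted log2 fold change of each of the 10 genes in 4 comparisons, with bars for the standard error. MT1E has the largest difference with either hairpin, at 5.29 and 4.90, and in the last panel all metallothionein points lie right of 0 and those of MTF1 and the transporters left of it.

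MT2A, at chr16:56608199-56609497 (GRCh38, plus strand), was the most abundant of the metallothioneins. It had 277, 294 and 279 CPM in the control libraries, 398, 424 and 415 with CCNE1, 1263, 1267 and 1377 with shTMLHE 1 and 666, 607 and 696 with shTMLHE 2, from 3376 to 23052 counts a library. The groups did not overlap, and their order was control, CCNE1, shTMLHE 2, shTMLHE 1. MT2A rose with CCNE1 by 0.54 ± 0.04 (log2, SE; edgeR adjusted p = 6.3e-12). It was above CCNE1 by 1.66 ± 0.04 with shTMLHE 1 and by 0.67 ± 0.04 with shTMLHE 2, and higher with shTMLHE 1 than with shTMLHE 2 by 0.99 ± 0.04 (edgeR adjusted p = 1.25e-19). The difference of shTMLHE 2 from CCNE1 was 1.20 with total-count scaling and 1.18 once a trend on GC content and exon length in each library was taken out, called the GC and length correction below.

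MT1E, at chr16:56625475-56627112 on the plus strand, had the largest differences of the 10 genes between each hairpin and CCNE1. Control libraries had 7.39, 6.18 and 4.64 CPM and CCNE1 libraries 11.1, 11.4 and 7.35. With shTMLHE 1 it had 403, 388 and 377 CPM and with shTMLHE 2 288, 302 and 303 CPM. From at most 207 counts in a CCNE1 library, MT1E thus stood at 5403 or more in every hairpin library. It was above CCNE1 by 5.29 ± 0.10 with shTMLHE 1 and by 4.90 ± 0.10 with shTMLHE 2. The rise with CCNE1 was 0.69 ± 0.16 (edgeR adjusted p = 0.00245), although the lowest CCNE1 library lay just below the highest control library. MT1E was higher with shTMLHE 1 than with shTMLHE 2 by 0.39 ± 0.07 (edgeR adjusted p = 6.43e-05), a call that ended once corrected for GC and length (0.18, adjusted p = 0.0527) and with FPKM in place of counts.

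MT1X, at chr16:56682424-56684196 on the plus strand, had 1.32, 1.11 and 0.414 CPM in control and 1.94, 1.38 and 1.08 CPM with CCNE1. It had 27.8, 27.8 and 29.8 CPM with shTMLHE 1 and 14.1, 13.5 and 12.9 CPM with shTMLHE 2. Control and CCNE1 libraries overlapped, and the hairpin groups stood apart from them and from each other. MT1X was above CCNE1 by 4.30 ± 0.19 with shTMLHE 1 and by 3.22 ± 0.20 with shTMLHE 2. The difference between CCNE1 and control, 0.57 ± 0.31, missed the threshold (edgeR adjusted p = 0.145), and it was 0.90 without control replicate 1, 0.23 without control replicate 3 and 0.35 without CCNE1 replicate 1. Between the hairpins it was 1.07 ± 0.14 higher with shTMLHE 1 (edgeR adjusted p = 1.26e-08).

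MT1M, at chr16:56632233-56633986 on the plus strand, was close to absent without a hairpin, at 5, 1 and 0 counts in control and 10, 3 and 2 counts with CCNE1. It had 11.2, 13.6 and 8.29 CPM with shTMLHE 1 and 7.32, 5.46 and 3.81 CPM with shTMLHE 2, against at most 0.747 CPM in any CCNE1 library. The hairpin groups did not overlap. Against CCNE1 it was higher by 5.07 ± 0.41 and 4.09 ± 0.43, values that rest on few CCNE1 counts. Its difference between CCNE1 and control, 1.03 ± 0.86, missed the threshold (edgeR adjusted p = 0.353) and ran from -0.055 without CCNE1 replicate 1 to 2.77 without control replicate 1, with 0.51 without control replicate 3. MT1M was higher with shTMLHE 1 than with shTMLHE 2 by 0.98 ± 0.27 (edgeR adjusted p = 0.00249). This call was lost with DESeq2 (adjusted p = 0.0875), once corrected for GC and length (0.39, adjusted p = 0.253) and on log2(FPKM + 0.1). MT1M passed the filter through the hairpin groups, so this test is not independent of its entry.

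MT1F, at chr16:56657694-56660698 on the plus strand, had 0.488, 0.396 and 0.414 CPM in control, 0.896, 1.10 and 0.760 with CCNE1, 4.82, 6.31 and 5.08 with shTMLHE 1 and 2.06, 2.26 and 2.80 with shTMLHE 2. None of the 4 groups overlapped. It was above CCNE1 by 2.54 ± 0.32 with shTMLHE 1 and by 1.35 ± 0.33 with shTMLHE 2, the latter 2.17 once corrected for GC and length. The rise with CCNE1 was 1.08 ± 0.44 (edgeR adjusted p = 0.0455) from 5 to 7 counts a control library. That call ended without control replicate 1 (adjusted p = 0.0663), 2 (0.103) or 3 (0.0907), without CCNE1 replicate 1 (0.0587) or 2 (0.141), and with DESeq2 (0.0533) and limma-voom (0.181). Between the hairpins MT1F was 1.19 ± 0.28 higher with shTMLHE 1 (edgeR adjusted p = 0.00031).

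MT1L, at chr16:56617476-56618818 on the plus strand, is annotated as a transcribed unprocessed pseudogene. It had 10.0, 10.6 and 10.1 CPM in control, 15.5, 14.2 and 14.0 with CCNE1, 15.6, 18.1 and 19.1 with shTMLHE 1 and 10.7, 9.94 and 10.3 with shTMLHE 2. Control and shTMLHE 2 overlapped at the low end, and the lowest shTMLHE 1 library lay just above the highest CCNE1 library at the high end. MT1L rose with CCNE1 by 0.50 ± 0.13 (edgeR adjusted p = 0.00199) and was higher with shTMLHE 1 than with shTMLHE 2 by 0.77 ± 0.12 (edgeR adjusted p = 1.12e-06). Against CCNE1 it differed by 0.28 ± 0.12 with shTMLHE 1 and by -0.49 ± 0.13 with shTMLHE 2. The second of these moved to 0.035 with total-count scaling as well as once corrected for GC and length, and the first to 0.67 and 0.56.

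**Figure D3:**
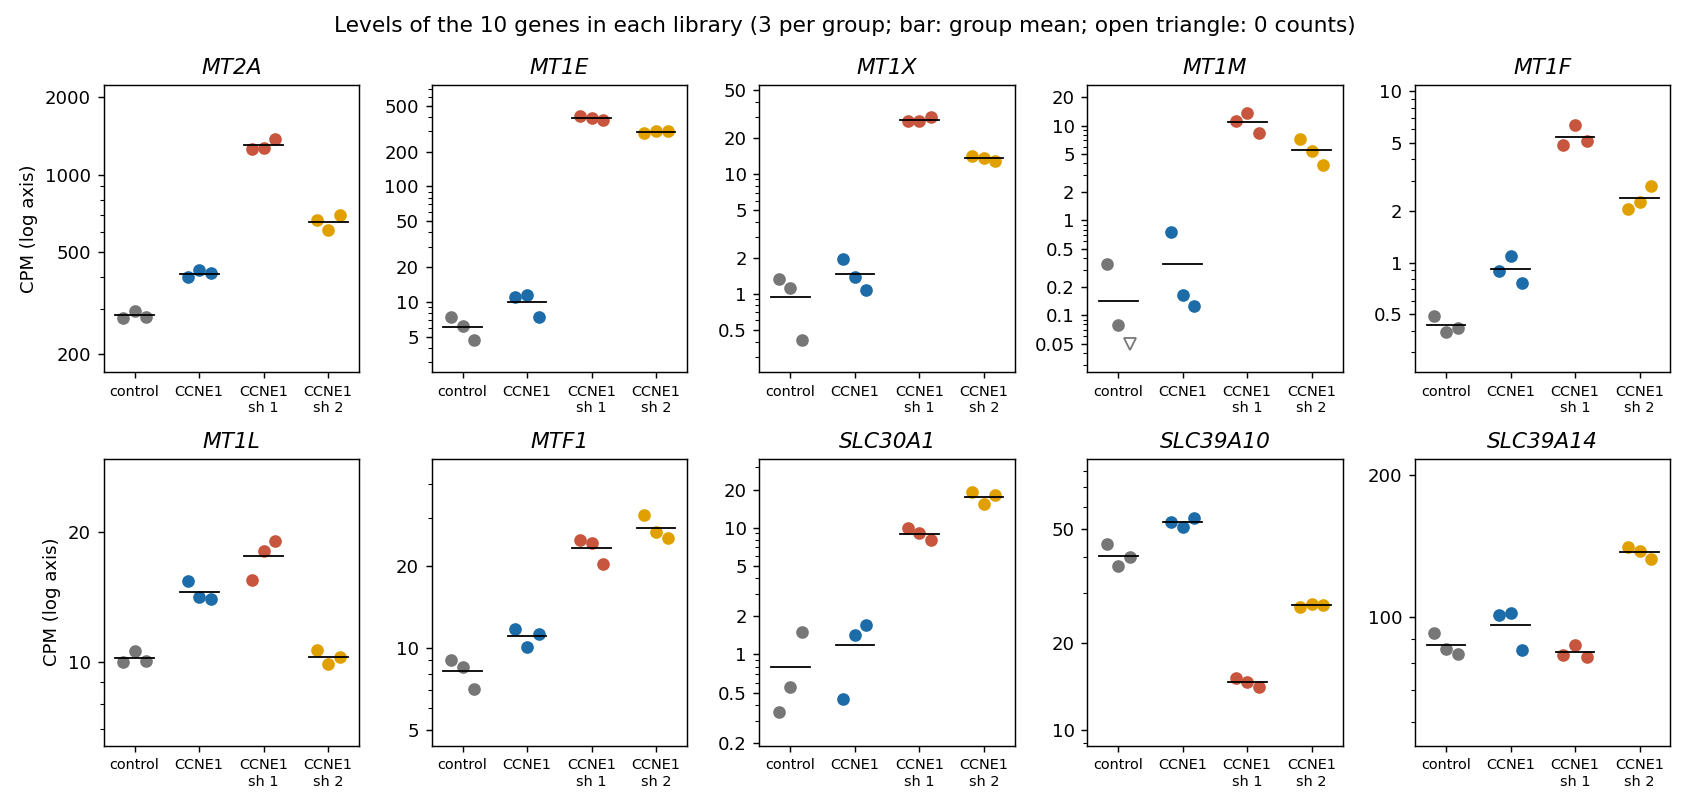
Each panel plots 1 gene's CPM on a log axis in 12 libraries, 3 a group, with a bar at the group mean and an open triangle for a library at 0 counts. MT2A, MT1E, MT1X, MT1M and MT1F are highest with shTMLHE 1, SLC30A1 and SLC39A14 with shTMLHE 2, and SLC39A10 is lowest with shTMLHE 1.

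Levels can be set beside each other per kilobase of exon. On that scale the CCNE1 group had a mean of 317 CPM per kb for MT2A, 35.4 for MT1L, 9.44 for MT1E, 0.826 for MT1X, 0.486 for MT1F and 0.368 for MT1M. With shTMLHE 1 the means were 1002 for MT2A, 370 for MT1E, 42.8 for MT1L, 16 for MT1X, 11.7 for MT1M and 2.86 for MT1F. MT1E passed MT1L and MT1M passed MT1F in that order of means. With CCNE1 the range of MT1M, 0.135 to 0.793 from 2 to 10 counts, spanned that of MT1F, 0.403 to 0.582. With shTMLHE 2 the means were 505 for MT2A, 283 for MT1E, 25.1 for MT1L, 7.62 for MT1X, 5.87 for MT1M and 1.26 for MT1F, the same order as with shTMLHE 1. The order depends on the annotated exon length. For MT2A (1299 bases) and MT1X (1773 bases) that length covers the whole gene, whereas MT1L has 411 bases. In CPM, MT1X was above MT1L with shTMLHE 1 (28.4 against 17.6) and shTMLHE 2 (13.5 against 10.3).

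Similar members share sequence, and the treatment of reads that match several genes is not given in the sources used here. Of the stretches of 50 bases in the exons, 18.3% of those of MT1X also occurred in another gene, 9.87% of MT1M, 7.1% of MT1E, 4.42% of MT1L, 3.02% of MT2A and 1.22% of MT1F. At 100 bases this held for 11.3% of MT1X, through the same-strand gene AC026461.1 that overlaps it, and for none of the other metallothioneins listed. Counts of MT1X, MT1M and MT1E are therefore the least certain in this respect, and the sum over all 21 genes and pseudogenes does not depend on how reads were split among them, although it would on whether shared reads were dropped.

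The other 15 metallothionein genes and pseudogenes had few or no reads and none passed the filter. MT1A, MT1B, MT1CP, MT1DP, MT1G, MT1H, MT1IP, MT1P3, MT3 and MT4 had 0 counts in all 12 libraries. A count of 0 allows up to 3 counts, which is 0.14 to 0.213 CPM on unscaled library totals. That bound leaves aside shared reads that may have been dropped. MT1A, MT1G, MT1H and MT1P3 share stretches of 50 bases with members of the set. MT1JP reached 13 counts in 1 CCNE1 library, and MT1P1, MT2P1, MT1XP1 and MT1HL1 had at most 5. MT1G, MT1H and MT1A lie within the same cluster on chromosome 16, between members that were higher with either hairpin.

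**Figure D4:**
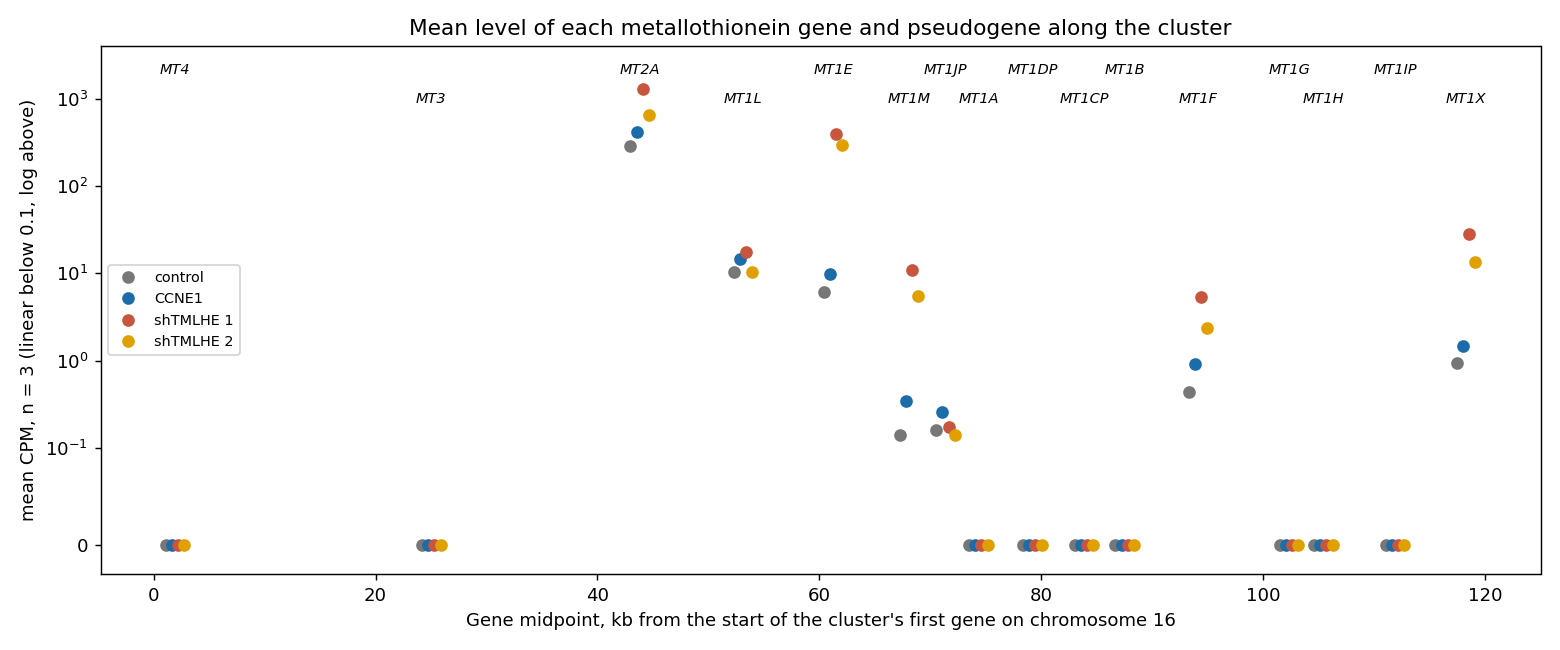
Points give the mean CPM (n = 3) of 16 metallothionein genes and pseudogenes in each group against their position in kb along the cluster on chromosome 16. MT2A, MT1E, MT1M, MT1F and MT1X are above their CCNE1 level with both hairpins, while 9 genes at the foot of the plot have 0 counts in every library.

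MTF1, the metal-sensing transcription factor, lies at chr1:37809567-37859620 on the minus strand. It had 8.99, 8.48 and 7.04 CPM in control, 11.7, 10.0 and 11.2 with CCNE1, 24.9, 24.3 and 20.2 with shTMLHE 1 and 30.6, 26.6 and 25.2 with shTMLHE 2. All hairpin libraries were above all CCNE1 libraries, and these above control; the lowest shTMLHE 2 library was just above the highest shTMLHE 1 library. MTF1 was above CCNE1 by 1.08 ± 0.12 with shTMLHE 1 and by 1.33 ± 0.12 with shTMLHE 2. It rose with CCNE1 by 0.42 ± 0.14 (edgeR adjusted p = 0.014), which was 0.32 without control replicate 3 (adjusted p = 0.0879) and missed the threshold with limma-voom (adjusted p = 0.054). Between the hairpins the difference was -0.25 ± 0.11 (edgeR adjusted p = 0.0506). It passed without shTMLHE 1 replicate 1 (-0.31, adjusted p = 0.0426) or shTMLHE 2 replicate 3 (-0.31, adjusted p = 0.0382), and was -0.16 without shTMLHE 1 replicate 3 or shTMLHE 2 replicate 1. It also passed with RLE scaling (adjusted p = 0.0232), upper quartile scaling (adjusted p = 0.0296), DESeq2 (adjusted p = 0.0301) and limma-voom (adjusted p = 0.0135), and was -0.10 once corrected for GC and length (adjusted p = 0.459).

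SLC30A1, the zinc exporter of the plasma membrane and a target of MTF1, lies at chr1:211571568-211578742 on the minus strand. It had 0.348, 0.555 and 1.49 CPM in control and 0.448, 1.43 and 1.71 with CCNE1, or 5 to 27 counts a library. With shTMLHE 1 it had 9.86, 9.13 and 7.99 CPM and with shTMLHE 2 19.1, 15.4 and 18.2 CPM. Control and CCNE1 overlapped, and the hairpin groups lay above both, in the opposite order to the metallothioneins. SLC30A1 was above CCNE1 by 2.86 ± 0.27 with shTMLHE 1 and by 3.82 ± 0.26 with shTMLHE 2. It was lower with shTMLHE 1 than with shTMLHE 2 by a log2 difference of -0.96 ± 0.20 (edgeR adjusted p = 9.73e-05), which was -0.42 once corrected for GC and length (adjusted p = 0.0722). The difference between CCNE1 and control, 0.67 ± 0.42, missed the threshold (edgeR adjusted p = 0.199) but passed without control replicate 3 (1.46, adjusted p = 0.0136) or CCNE1 replicate 1 (1.01, adjusted p = 0.0306), and was 0.28 without control replicate 1 and 0.37 without CCNE1 replicate 3.

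Of the 10 genes outside the set that were listed as zinc exporters by family, 7 passed the filter. Those named below, like the importers further on, are the list members with the smallest p over both hairpin contrasts, so their p-values, adjusted over all tested genes, carry that choice. With CCNE1 1 rose, SLC30A6, and 1 fell, SLC30A5, where 25.1% of all tested genes rose and 19.1% fell. With shTMLHE 1 4 rose and none fell, where 30.4% of all tested genes rose and 30.3% fell, at a median of 0.50 against 0.03. With shTMLHE 2 5 rose and 1 fell, where 36.8% rose and 36.2% fell, at a median of 1.08 against 0.03. SLC30A7, a transporter of the Golgi, had 20.2 to 26.0 CPM with CCNE1, 45.3 to 52.3 with shTMLHE 1 and 74.8 to 83.5 with shTMLHE 2. It rose by 1.06 ± 0.09 with shTMLHE 1 (edgeR adjusted p = 1.41e-13) and by 1.73 ± 0.08 with shTMLHE 2 (edgeR adjusted p = 8.09e-21), or by 0.28 and 0.39 once corrected for GC and length. SLC30A5 and SLC30A6, which form a pair in the secretory pathway, differed: SLC30A5 rose by 0.50 ± 0.14 and 1.15 ± 0.14 with shTMLHE 1 and 2 (edgeR adjusted p = 0.00274 and 1.27e-09). SLC30A6 was at -0.08 ± 0.11 with shTMLHE 1 (edgeR adjusted p = 0.568) and rose by 1.00 ± 0.11 with shTMLHE 2 (edgeR adjusted p = 8.37e-11). SLC30A9, a mitochondrial zinc transporter, rose by 0.78 ± 0.14 and 1.30 ± 0.14 (edgeR adjusted p = 1.25e-05 and 1.22e-10). After GC and length correction the calls of SLC30A9 and SLC30A5 ended with both hairpins (0.26 and 0.28; 0.11 and 0.29). SLC30A6 was then at -0.60 with shTMLHE 1, where it gained a call (adjusted p = 1.87e-05), and at -0.062 with shTMLHE 2, where it lost one.

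SLC39A10, an importer of the plasma membrane, lies at chr2:195575977-195737702 on the plus strand. It had 44.3, 37.1 and 40.1 CPM in control, 53.0, 50.9 and 54.9 with CCNE1, 15.1, 14.7 and 14.1 with shTMLHE 1 and 26.8, 27.5 and 27.3 with shTMLHE 2. The groups did not overlap, with CCNE1 highest and shTMLHE 1 lowest. Against CCNE1 the difference was -1.85 ± 0.09 with shTMLHE 1 and -0.96 ± 0.08 with shTMLHE 2. The latter was -0.43 with total-count scaling and -2.12 once corrected for GC and length. SLC39A10 was lower with shTMLHE 1 than with shTMLHE 2 by a difference of -0.89 ± 0.09 (edgeR adjusted p = 2.12e-11), or -0.35 once corrected for GC and length. It rose with CCNE1 by 0.38 ± 0.08 (edgeR adjusted p = 0.000127), and after that correction the difference was -0.029 (adjusted p = 0.812).

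SLC39A14, which imports zinc, manganese and non-transferrin iron, lies at chr8:22367249-22434129 on the plus strand. It had 92.8, 85.7 and 83.4 CPM in control, 101, 102 and 85.2 with CCNE1, 83.1, 87.2 and 82.3 with shTMLHE 1 and 141, 138 and 133 with shTMLHE 2. Only shTMLHE 2 stood apart, above the 3 other groups, which overlapped. The difference from CCNE1 was 0.52 ± 0.06 with shTMLHE 2 and -0.19 ± 0.06 with shTMLHE 1. With total-count scaling these were 1.04 and 0.20, and once corrected for GC and length 0.26 and -0.36. SLC39A14 was lower with shTMLHE 1 than with shTMLHE 2 by a difference of -0.71 ± 0.06 (edgeR adjusted p = 5.35e-14). Its difference between CCNE1 and control, 0.14 ± 0.06, missed the threshold (edgeR adjusted p = 0.0563) and passed without control replicate 1 (0.18, adjusted p = 0.0247) or CCNE1 replicate 3 (0.22, adjusted p = 0.00217), with 0.089 without CCNE1 replicate 2.

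Of the 12 zinc importers outside the set, 9 passed the filter. With CCNE1 1 rose, SLC39A3, and 4 fell, at a median of -0.08 against 0.05 over all tested genes. With shTMLHE 1 2 rose and 4 fell, at a median of -0.46 against 0.03, and with shTMLHE 2 3 rose and 4 fell, at a median of -0.23 against 0.03. Of all tested genes 44.2%, 60.7% and 73.0% passed in these 3 comparisons. SLC39A4, an importer of the plasma membrane, had 118 to 133 CPM with CCNE1, 47.3 to 52.1 with shTMLHE 1 and 30.5 to 33.3 with shTMLHE 2. It fell by 1.33 ± 0.06 with shTMLHE 1 (edgeR adjusted p = 4.13e-22) and by 1.98 ± 0.06 with shTMLHE 2 (edgeR adjusted p = 1.01e-27). SLC39A3 fell by 0.50 ± 0.08 (edgeR adjusted p = 6.68e-07) and 1.68 ± 0.08 (edgeR adjusted p = 1.99e-20). The first of these values was -0.11 with total-count scaling (adjusted p = 0.223), and both were smaller once corrected for GC and length, at -0.30 and -1.04. SLC39A6, the closest paralog of SLC39A10, went the other way: it rose by 0.78 ± 0.13 with shTMLHE 1 (edgeR adjusted p = 1.69e-06) and by 1.47 ± 0.12 with shTMLHE 2 (edgeR adjusted p = 3.97e-13), the latter 0.88 after that correction. SLC39A13, a transporter of the Golgi, was at -0.12 ± 0.07 with shTMLHE 1 (edgeR adjusted p = 0.147) and fell by 0.87 ± 0.07 with shTMLHE 2 (edgeR adjusted p = 1.01e-13). Both values were above 0 once corrected for GC and length. SLC39A13 was then at 0.22 with shTMLHE 1, where it gained a call (edgeR adjusted p = 0.00477). With shTMLHE 2 it was at 0.12 and lost its call (edgeR adjusted p = 0.14).

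**Figure D5:**
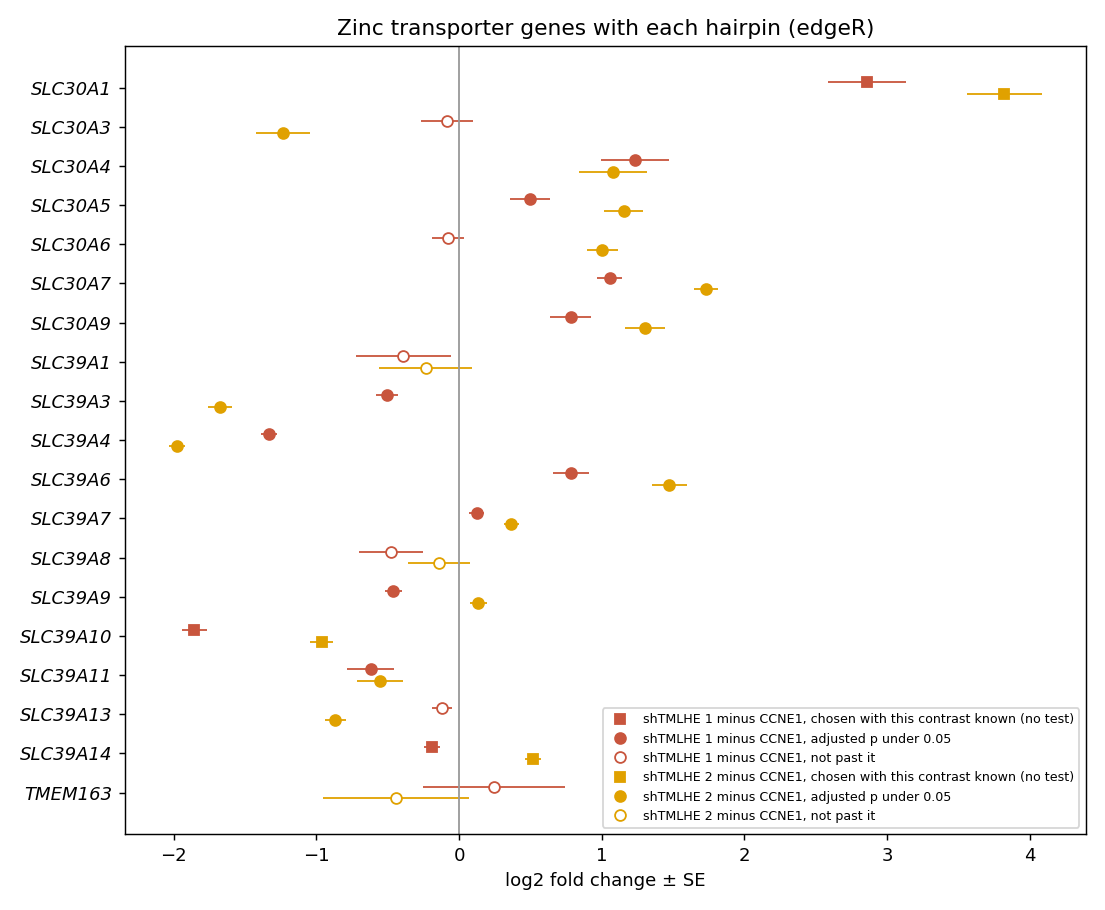
Points give log2 fold changes with standard errors of the tested zinc transporter genes for each hairpin minus CCNE1, filled where a gene outside the 10 passed the edgeR test and square for the 3 transporters among the 10. SLC30A1 lies farthest right, at 2.86 and 3.82, and SLC39A4 farthest left with shTMLHE 2, at -1.98.

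The 10 genes did not share 1 profile over the 12 libraries. The Pearson correlation with the mean profile of the 6 metallothionein members (z-scored log2 CPM, itself made from them) was 0.99 for MT2A and MT1F, 0.97 for MT1X, 0.95 for MT1M, 0.94 for MT1E and 0.61 for MT1L. Outside the profile it was 0.87 for MTF1, 0.78 for SLC30A1, 0.12 for SLC39A14 and -0.89 for SLC39A10. Among 1733 other genes whose group means spanned at least 2 log2 units, those most like the profile were ADGRG1 and PODXL (0.98), ELK3, EFR3A, SYNE2 and MBNL1 (0.97), and TET3 and DOCK4 (0.96). ADGRG1, an adhesion G protein-coupled receptor, had mean levels of 7.84, 12.7, 53.3 and 29.5 CPM in control, CCNE1, shTMLHE 1 and shTMLHE 2. PODXL, a sialomucin of the cell surface, had 169, 264, 696 and 342 CPM. These correlations describe 4 group levels more than 12 separate points, since libraries of a group were alike.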

How the data were processed

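The deposited table of counts holds whole-number counts per gene for 58735 genes in 12 libraries, and the authors deposited FPKM of the same genes beside gene lengths. The submitters' processing notes name the aligner STAR 2.6.1, the GRCh38 build and DESeq2. The counting program, its strand setting and the read length were not given in the sources used here. All deposited gene lengths equalled GENCODE 29 exon lengths (100% of genes), so coordinates come from that annotation. The deposited FPKM equal counts divided by length and by 0.819 to 1.21 times the library total. No per-sample column was left out.

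Counts were tested with edgeR 4.0.16 (limma 3.58.1, R 4.3.3): filterByExpr by group, TMM, a robust quasi-likelihood fit of the group means over all 12 libraries (8 residual degrees of freedom) and Benjamini-Hochberg adjustment over all 15378 tested genes, with calls at an adjusted p under 0.05. The procedure was also run on simulated counts in which a small part of the genes changed in a single hairpin group, equally up and down. In the data a large share of genes was called, so that run does not test the scaling. CPM are TMM-scaled; errors are SD for CPM and SE for log2 fold changes. Replicate pairs differed by more than sampling noise (chi-square per degree of freedom 2.07 to 5.45), so none was treated as a duplicate.

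The 10 genes and all lists were chosen with earlier results of these data known. Named beside them are CCNE1, TMLHE, of each list (other metallothioneins, other zinc exporters, other zinc importers, copper handling, iron handling, heavy metal stress, glucocorticoid receptor and targets) up to 4 genes by smallest p over both hairpin contrasts, and the 8 genes of mean log2 CPM of 1 or more that were most like the metallothionein profile; neighbours of the cluster were added after the data were seen.

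Alternatives were RLE, upper quartile and total-count scaling, no filter or CPM of at least 1 in 3 libraries, DESeq2 1.42.0, limma-voom, leaving out each library in turn, a block for replicate number, fits of 2 groups alone, an adjusted p under 0.01, metallothioneins summed, limma-trend on log2(FPKM + 0.1) or log2(FPKM + 1), and a per-library trend on GC content and length removed (values for 99.97% of tested genes). Promoter windows are from RefSeq.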

Additional observations from a re-analysis of the deposited data

Results flagged for a closer look

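Between the 2 hairpins against the same gene, 9 of the 10 genes differed (edgeR adjusted p under 0.05), as did 60.3% of all tested genes. This contrast is the difference of the contrasts that chose the genes, so the count is not independent of that choice. Once corrected for GC and length, MT1E (edgeR adjusted p = 0.0527), MT1M (0.253) and SLC30A1 (0.0722) missed the threshold. MT1M had passed the filter through the hairpin groups. Higher with shTMLHE 1 were MT1F by 1.19, MT1X by 1.07, MT2A by 0.99, MT1M by 0.98, MT1L by 0.77 and MT1E by 0.39 on the log2 scale. Lower with shTMLHE 1 were SLC30A1 at -0.96, SLC39A10 at -0.89 and SLC39A14 at -0.71. TMLHE itself had 0.712 to 1.27 CPM with shTMLHE 1 and 0.247 to 0.729 with shTMLHE 2. CCNE1 had 1219 to 1317 CPM with shTMLHE 1 and 823 to 860.3 with shTMLHE 2. The part of TMLHE or CCNE1 levels in these differences was not tested.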

How the results depend on the processing

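Calls among the 10 genes numbered 4 to 7 for CCNE1 minus control (5 to 7 with 1 library left out) and 6 to 10 for shTMLHE 1 minus shTMLHE 2. In the main fit 44.2% and 60.3% of all tested genes were called there. For each hairpin minus CCNE1 the calls numbered 9 to 10, where 60.7% of all tested genes were called with shTMLHE 1 and 73.0% with shTMLHE 2. Those counts follow from how the genes were chosen and nothing is read from them. All ranges are over the alternatives that gave a count, and summing the metallothioneins gives none. Counts over all genes stayed within 1.5 times their value. For CCNE1 minus control and between the hairpins the summed metallothioneins kept sign and call in every alternative run, which left out FPKM and the GC trend. Their ranges were 0.52 to 0.57 and 0.70 to 0.86. Against CCNE1 the sum ran from 1.97 to 2.39 with shTMLHE 1 and from 1.13 to 1.69 with shTMLHE 2. These last ranges are given with no test, since the genes were chosen by those differences. Signs turned as follows, and the cause was not tested. With total-count scaling shTMLHE 1 minus CCNE1 was 0.20 for SLC39A14, 0.32 for SLC30A6, 0.28 for SLC39A13 and 0.36 for TFRC, and shTMLHE 2 minus CCNE1 was 0.035 for MT1L and 0.30 for DUSP1. With upper quartile scaling shTMLHE 1 minus CCNE1 was 0.007 for SLC30A6 and 0.049 for TFRC. Once corrected for GC and length SLC39A10 was -0.029 for CCNE1 minus control, SLC39A13 was 0.22 with shTMLHE 1 and 0.12 with shTMLHE 2, and with shTMLHE 2 MT1L was 0.035, SLC30A6 -0.062, DUSP1 0.32 and SGK1 -0.50. With 1 library left out, MT1M ran from -0.055 (without CCNE1 replicate 1) to 2.77 for CCNE1 minus control, and SLC30A6 from -0.20 to 0.0063 (without CCNE1 replicate 1) for shTMLHE 1 minus CCNE1. Depth limits MT1M, MT1F, MT1X and SLC30A1 in control and CCNE1, where no library held more than 27 counts of any of them.

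Replicate numbers gave no sign of pairing: deviations of same-numbered libraries correlated at -0.046 to 0.026. With the replicate block 6, 9, 10 and 10 of the 10 genes were called in CCNE1 minus control, shTMLHE 1 minus CCNE1, shTMLHE 2 minus CCNE1 and shTMLHE 1 minus shTMLHE 2, and 6624, 9231, 11123 and 9125 of all genes. Counts against CCNE1 in this fit again follow from how the genes were chosen. In that fit MT1F missed the threshold for CCNE1 minus control (adjusted p = 0.0564), SLC39A14 passed it (adjusted p = 0.0425), and MTF1 passed between the hairpins (adjusted p = 0.0454).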

Other observations

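The lists of other genes are read against all tested genes, of which 44.2% were called with CCNE1, 60.7% with shTMLHE 1 and 73.0% with shTMLHE 2. The genes named from each list are those with the smallest p over both hairpin contrasts, so their p-values carry that choice. Of 9 tested copper genes 1 rose and 3 fell with CCNE1, 1 rose and 3 fell with shTMLHE 1, and 2 rose and 3 fell with shTMLHE 2. ATOX1, the copper chaperone of the secretory pathway, fell by 1.41 ± 0.08 and 1.30 ± 0.07 (log2, SE) with shTMLHE 1 and 2 (edgeR adjusted p = 4.45e-19 and 1.07e-18). CCS, the chaperone of superoxide dismutase, fell by 0.55 ± 0.08 and 1.39 ± 0.08 (edgeR adjusted p = 9.08e-08 and 3.2e-18), values that were -0.061 (no longer called) and -0.25 once corrected for GC and length. Of 9 tested iron genes 3 rose and 4 fell with CCNE1, 2 rose and 5 fell with shTMLHE 1, and 4 rose and 4 fell with shTMLHE 2. FTL, the ferritin light chain, fell by 1.23 ± 0.03 and 1.91 ± 0.03 (edgeR adjusted p = 2.52e-29 and 1.6e-35), the latter -1.18 once corrected for GC and length. TFRC, the transferrin receptor, was at -0.04 ± 0.06 with shTMLHE 1 (edgeR adjusted p = 0.6) and rose by 1.75 ± 0.05 with shTMLHE 2 (edgeR adjusted p = 4.35e-27). After that correction it was at -0.45 (adjusted p = 2.66e-09) and 0.92.

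Metallothionein genes also respond to heavy metal stress and to glucocorticoids, so both lists were counted. The same shares of all tested genes, 44.2%, 60.7% and 73.0%, stand beside these counts. Of 10 heavy metal stress genes 3 rose and 4 fell with CCNE1, 5 rose and 2 fell with shTMLHE 1, and 5 rose and 4 fell with shTMLHE 2. Those that fell were HSPA1A and GCLC with shTMLHE 1, and HMOX1, HSPA1A, HSPA1B and DNAJB1 with shTMLHE 2. HMOX1 rose with shTMLHE 1, and GCLC rose with shTMLHE 2. SLC7A11, the cystine importer subunit, rose by 1.00 ± 0.08 and 2.12 ± 0.08 (edgeR adjusted p = 1.66e-13 and 1.74e-24), or by 0.11 (no longer called) and 0.66 once corrected for GC and length. TXNRD1, a thioredoxin reductase, rose by 0.46 ± 0.04 and 1.14 ± 0.04 (edgeR adjusted p = 3.78e-13 and 5.96e-26), or by 0.26 and 0.69 after correction. Of 7 tested glucocorticoid genes 3 rose and 2 fell with CCNE1, 2 rose and 3 fell with shTMLHE 1, and 3 rose and 2 fell with shTMLHE 2. SGK1, a kinase, rose by 1.25 ± 0.11 and 0.44 ± 0.11 (edgeR adjusted p = 4.24e-13 and 0.000478). DUSP1, a phosphatase, fell by 0.58 ± 0.04 and 0.23 ± 0.04 (edgeR adjusted p = 2.6e-15 and 2.74e-06). Once corrected for GC and length SGK1 was at 0.73 and -0.50 and DUSP1 at -0.32 and 0.32, so both turned with shTMLHE 2. DUSP1 was also at 0.30 there with total-count scaling.

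Of the genes inside the metallothionein cluster or within 200 kb of it, 6 were tested, and they were chosen after the data were seen. With shTMLHE 1 3 rose and 2 fell, where 30.4% of all tested genes rose and 30.3% fell, at a median of 0.15 against 0.03. With shTMLHE 2 2 rose and 1 fell, where 36.8% rose and 36.2% fell, at a median of 0.20 against 0.03. The nucleoporin gene NUP93 differed most between the hairpins, at 0.06 ± 0.04 with shTMLHE 1 (edgeR adjusted p = 0.131) and a fall of 1.04 ± 0.04 with shTMLHE 2 (edgeR adjusted p = 4.17e-25). Inside the cluster AC026461.3, which starts just past the end of MT2A, rose by 1.63 ± 0.53 with shTMLHE 1 (edgeR adjusted p = 0.00761) and was at 1.03 ± 0.54 with shTMLHE 2 (edgeR adjusted p = 0.0827).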
